A study of Mus musculus with 12 samples.

Results

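Enc1, Stac2, Tmem252, Vwa1 and Rest are 5 genes whose RNA was higher with traction in the scars of Tem1WT/WT mice and lower in Tem1lacZ/lacZ than in Tem1WT/WT scars under traction. They were taken by symbol from a table of 35976 genes, of which 18853 had enough reads to be tested. Bulk RNA sequencing was done on the back skin scars of 12 mice in 4 groups of 3: Tem1WT/WT with sham treatment, Tem1WT/WT with traction, Tem1lacZ/lacZ with sham treatment and Tem1lacZ/lacZ with traction. All mice were males aged 8 to 12 weeks on a C57BL/6 J background and carried a 1.5-cm split wound on which a plastic device was placed after 6 days. The device was lengthened by 1 mm a day, to 8 mm in all, in the traction groups, and was left at its length in the sham groups. Tem1, also called Cd248 or endosialin, has 1 exon, and Tem1lacZ/lacZ mice carry a lacZ reporter in its place in all cells. The groups therefore do not separate a loss in fibroblasts from a loss in other cells.

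The proteins of these genes have unrelated known roles. ENC1 is a BTB-Kelch protein that binds actin, STAC2 is an adaptor of L-type calcium channels, and VWA1, also called WARP, is a matrix protein of basement membranes that binds perlecan and collagen VI. REST is a zinc finger repressor that keeps neuronal genes silent in other cells by recruiting co-repressors such as the RCOR proteins and histone deacetylases, and TMEM252 is a small membrane protein whose function is little known.

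The library totals lay between 41536788 and 64644293 counted reads. Cd248 had 4 to 8 counts in the Tem1lacZ/lacZ sham scars, 0 to 13 in the Tem1lacZ/lacZ traction scars and 3883 to 16413 in the Tem1WT/WT scars. All 7 fibroblast markers and all 6 keratinocyte markers looked for were detected. Levels below are in CPM, the read count of a gene relative to its library size after scaling by the trimmed mean of M-values (TMM), and errors of group means are SDs with n = 3 mice. In bulk tissue a lower level cannot be told apart as fewer cells of a type or less RNA per cell.

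The genes were chosen by their measured values in the traction comparison in Tem1WT/WT scars and in the genotype comparison under traction. Values of those comparisons are therefore given as a description, with no test. In edgeR's quasi-likelihood fit the background of the traction comparison in Tem1WT/WT scars was 5.61% of all genes called higher and 3.54% called lower at an adjusted p under 0.05, and that of the genotype comparison under traction was 0.0955% called lower and 0.0106% called higher. The 5 genes belong to a set of 16 genes called higher in the first and lower in the second. The other 11 were Gpc1, Cxcr4, P4ha1, Per1, Nos2, Fosl1, Cxcl1, Pvr, Tsku, Hapln4 and 1700017B05Rik. The threshold passed between neighbouring values. In edgeR's genotype comparison under traction Vwa1 and Gpc1 had adjusted p-values of 0.0449 and 0.0478, and Inhbb and Ddit4, just outside, 0.0502 and 0.0523. These values only show where the choice fell and are not a test of the genes. Groups did not overlap for any of the 5 genes in either comparison, against 35.7% and 26.6% of all genes, and nothing is read from this because the comparisons chose the genes.

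Tmem252 had the largest difference with traction among the 5. The gene lies on the plus strand of chr19:24674008-24679661 (GRCm38, Entrez 226040). In Tem1WT/WT sham scars its levels were 3.36, 4.95 and 4.57 CPM in replicates 1 to 3, and in Tem1WT/WT traction scars 25.2, 14.8 and 17.6 CPM. In Tem1lacZ/lacZ sham scars they were 5.21, 3.44 and 4.36 CPM, and in Tem1lacZ/lacZ traction scars 3.87, 5.99 and 4.41 CPM. The 3 Tem1WT/WT traction scars stood above all 9 others, and the ranges of the remaining 3 groups overlapped one another. The group means were 4.29 ± 0.827 and 19.2 ± 5.38 CPM in Tem1WT/WT and 4.34 ± 0.886 and 4.76 ± 1.10 CPM in Tem1lacZ/lacZ scars, without and with traction. With traction Tmem252 was 4.47-fold higher in Tem1WT/WT scars (log2 fold change 2.16, SE 0.28), a value exceeded by 2.11% of all genes, and under traction it was 4.03-fold lower in Tem1lacZ/lacZ than in Tem1WT/WT scars.

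The sequence before the start of Tmem252 is shown because this gene had the largest fold difference with traction of the 5. It is the only 1 of the 5 with an entry in the RefSeq promoter table (GRCm38.p6), and the 250 bases before its start, chr19:24673758-24674007 on the plus strand, read as follows, with the letters of an extended TATA element in capitals:
Tmem252 promoter: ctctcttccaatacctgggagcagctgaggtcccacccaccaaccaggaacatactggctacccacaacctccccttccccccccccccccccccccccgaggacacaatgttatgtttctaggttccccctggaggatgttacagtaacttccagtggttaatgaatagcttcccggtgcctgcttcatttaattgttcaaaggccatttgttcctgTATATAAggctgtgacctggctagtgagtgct
The capitals stand at position -32, counted from the first base of the gene. TATATAA was looked for after the sequence had been seen, and on either strand it occurs in 3.04% of 32851 promoters of the same length. The shorter TATAAA, present in 12.4% of promoters, did not occur, although its first 5 letters are the last 5 of TATATAA. Nor did 7 other motifs searched on both strands, which were AP-1 (TGANTCA, 6.75% of promoters), TEAD (GGAATG, 12.6%), a SMAD palindrome (GTCTAGAC, 0.167%), the E-box (CACGTG, 6.02%), the GC box (GGGCGG, 32.7%) and the left and right parts of the RE1 element that REST binds (TTCAGCACC, 0.301%, and GGACAG, 18.7%). The GC content was 53.2%, beside a median of 52.4% over all promoters, and the longest run of C was 22 bases.

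Stac2 was the other gene of low level without traction. It lies on the minus strand of chr11:98036623-98053462 (Entrez 217154). Its levels were 6.56, 7.25 and 8.29 CPM in Tem1WT/WT sham scars and 22.7, 16.6 and 18.0 CPM in Tem1WT/WT traction scars. They were 6.12, 6.57 and 7.09 CPM in Tem1lacZ/lacZ sham scars and 7.37, 9.53 and 8.56 CPM in Tem1lacZ/lacZ traction scars. The Tem1WT/WT traction scars again stood above all others, and the 3 Tem1lacZ/lacZ traction scars lay just above the 3 Tem1lacZ/lacZ sham scars without overlap. Means were 7.37 ± 0.872 and 19.1 ± 3.23 CPM in Tem1WT/WT and 6.59 ± 0.485 and 8.49 ± 1.08 CPM in Tem1lacZ/lacZ scars. The difference with traction was 2.59-fold in Tem1WT/WT scars (log2 fold change 1.37, SE 0.18), and under traction Stac2 was 2.25-fold lower in Tem1lacZ/lacZ scars.

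Vwa1 lies on the minus strand of chr4:155768495-155774693 (Entrez 246228). Its levels in Tem1WT/WT scars were 17.7, 18.7 and 18.7 CPM with sham treatment and 48.8, 39.0 and 52.6 CPM with traction. In Tem1lacZ/lacZ scars they were 18.3, 20.8 and 17.8 CPM with sham treatment and 21.6, 27.1 and 24.4 CPM with traction. The sham groups of the genotypes overlapped, and in each genotype the traction scars lay above the sham scars. Means were 18.4 ± 0.564 and 46.8 ± 7.05 CPM in Tem1WT/WT and 19.0 ± 1.64 and 24.4 ± 2.79 CPM in Tem1lacZ/lacZ scars. With traction Vwa1 was 2.55-fold higher in Tem1WT/WT scars (log2 fold change 1.35, SE 0.15), and under traction it was 1.92-fold lower in Tem1lacZ/lacZ scars. The antisense gene Atad3aos overlaps Vwa1 and had 8 to 49 counts per library, against 768 to 2560 for Vwa1, and whether the counting used strand is not given in the sources used here.

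Enc1 was the most abundant of the 5. It lies on the plus strand of chr13:97241105-97253040 (Entrez 13803). Its levels were 65.6, 74.2 and 70.8 CPM in Tem1WT/WT sham scars and 112, 101 and 112 CPM in Tem1WT/WT traction scars. They were 47.2, 57.9 and 53.2 CPM in Tem1lacZ/lacZ sham scars and 54.7, 57.8 and 53.2 CPM in Tem1lacZ/lacZ traction scars. All 6 Tem1lacZ/lacZ scars thus lay below all 6 Tem1WT/WT scars, and the Tem1lacZ/lacZ groups overlapped each other. Means were 70.2 ± 4.37 and 108 ± 6.23 CPM in Tem1WT/WT and 52.7 ± 5.38 and 55.2 ± 2.34 CPM in Tem1lacZ/lacZ scars. With traction Enc1 was 1.54-fold higher in Tem1WT/WT scars (log2 fold change 0.63, SE 0.12), the smallest of the 5 differences, which 16.7% of all genes exceeded. Under traction it was 1.96-fold lower in Tem1lacZ/lacZ scars.

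Rest lies on the plus strand of chr5:77265494-77286432 (Entrez 19712). Its levels were 28.7, 33.4 and 30.8 CPM in Tem1WT/WT sham scars and 60.3, 46.7 and 49.5 CPM in Tem1WT/WT traction scars. They were 17.6, 15.9 and 17.8 CPM in Tem1lacZ/lacZ sham scars and 16.8, 26.9 and 24.9 CPM in Tem1lacZ/lacZ traction scars. As for Enc1, all 6 Tem1lacZ/lacZ scars lay below all 6 Tem1WT/WT scars, while replicate 1 of the Tem1lacZ/lacZ traction group fell within the range of the Tem1lacZ/lacZ sham group. Means were 31.0 ± 2.35 and 52.1 ± 7.22 CPM in Tem1WT/WT and 17.1 ± 1.03 and 22.9 ± 5.33 CPM in Tem1lacZ/lacZ scars. With traction Rest was 1.68-fold higher in Tem1WT/WT scars (log2 fold change 0.75, SE 0.18), and under traction it was 2.28-fold lower in Tem1lacZ/lacZ scars.

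**Figure D1:**
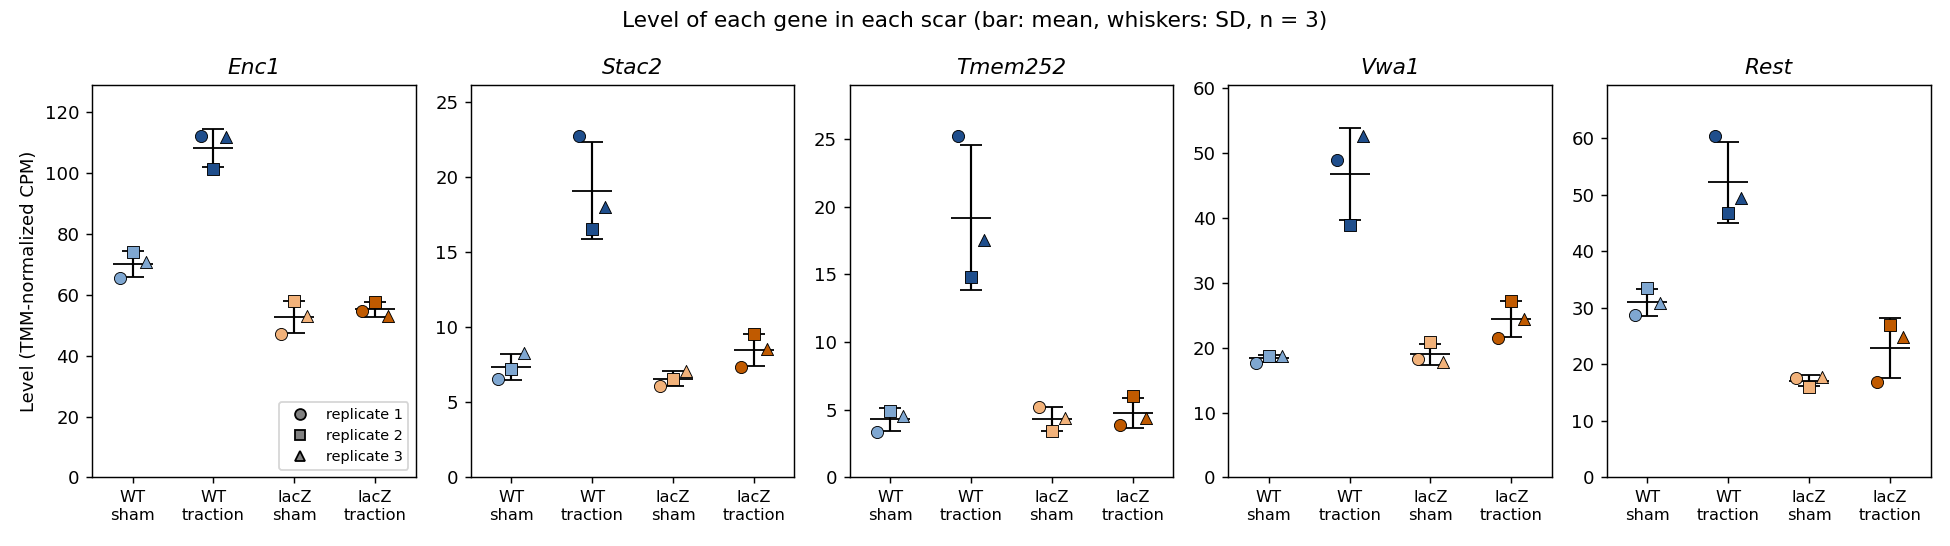
Level of each gene in each scar in TMM-normalized CPM (y axis, from 0, with its own scale per gene) for the 4 groups (x axis; WT is Tem1WT/WT and lacZ is Tem1lacZ/lacZ); points are single scars, horizontal bars are means and whiskers are SDs (n = 3). The Tem1WT/WT traction scars are the highest for every gene, and for Enc1 and Rest all 6 Tem1lacZ/lacZ scars lie below all 6 Tem1WT/WT scars.

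Per kilobase of exon the order of the mean levels was the same in all 4 groups, compared on CPM divided by the length of the exons in GENCODE vM21. In Tem1WT/WT sham scars it ran from Enc1 at 14.8 ± 0.923 CPM per kb through Vwa1 at 5.07 ± 0.156, Rest at 4.29 ± 0.326 and Stac2 at 2.35 ± 0.278 to Tmem252 at 0.853 ± 0.164 CPM per kb. With traction the same genes had 22.9 ± 1.32, 12.9 ± 1.95, 7.22 ± 0.999, 6.09 ± 1.03 and 3.82 ± 1.07 CPM per kb, and the neighbours Rest and Stac2 then differed by less than the sum of their SDs. In Tem1lacZ/lacZ sham scars Rest at 2.37 ± 0.142 and Stac2 at 2.0998 ± 0.154 CPM per kb also differed by less than the sum of their SDs, whereas Vwa1 stood at 5.23 ± 0.454 CPM per kb. The same held with traction in Tem1lacZ/lacZ scars, at 3.17 ± 0.738 CPM per kb for Rest and 2.70 ± 0.346 CPM per kb for Stac2.

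The first comparison that did not choose the genes asks whether traction changed them in Tem1lacZ/lacZ scars. All 5 point estimates were positive but none of the 5 passed an adjusted p of 0.05 in edgeR, where 0% of all genes were called higher and 0% lower. Before adjustment, 1530 genes had a p under 0.05, Vwa1 and Rest among them. Vwa1 was 1.29-fold higher with traction (log2 fold change 0.36, 95% interval 0.04 to 0.68, adjusted p = 0.598) and higher in 3 of 3 traction scars than in any sham scar. Rest was 1.34-fold higher (0.42, 0.03 to 0.81, adjusted p = 0.600), with 1 traction scar inside the sham range. Stac2 was 1.29-fold higher (0.36, -0.03 to 0.76, adjusted p = 0.622), again with 3 of 3 traction scars above all sham scars.

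Enc1 and Tmem252 were the genes with the smallest estimates in that comparison. Enc1 differed by 0.07 on the log2 scale (95% interval -0.20 to 0.33, adjusted p = 0.893) and Tmem252 by 0.13 (-0.46 to 0.72, adjusted p = 0.904). The estimate for Enc1 was 0.17 without replicate 2 and 0.03 without replicate 1 of the Tem1lacZ/lacZ sham group. For Tmem252 the direction turned to -0.06 without replicate 2 of the Tem1lacZ/lacZ traction group. The groups did not overlap for 2 of the 5 genes, Stac2 and Vwa1, against 12.9% of all genes. The comparison shares its traction libraries with the genotype comparison that chose the genes, so it is not separate from that choice.

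Without replicate 1 of the Tem1lacZ/lacZ traction group, the lowest of that group for Stac2, Tmem252, Vwa1 and Rest, the estimate for Rest moved to 0.64 (adjusted p = 0.0667) and that for Tmem252 to 0.30 (adjusted p = 0.628). That for Vwa1 was then 0.49 (adjusted p = 0.117), and that for Stac2 0.50 (adjusted p = 0.19). In that fit 73 genes were called, and none of the 5 was among them. Without replicate 2 of the same group, the highest for these 4 genes, the estimates were 0.29 for Rest, -0.06 for Tmem252, 0.28 for Vwa1 and 0.27 for Stac2, each with an adjusted p of 1.

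The second such comparison sets the genotypes side by side without traction. Rest, the neuronal gene repressor, was 1.81-fold lower in Tem1lacZ/lacZ than in Tem1WT/WT sham scars (log2 fold change -0.86, SE 0.18, 95% interval -1.25 to -0.46) and lower in 3 of 3 scars than in any Tem1WT/WT scar. Its p was 0.000541, rank 13 of 18853 genes, but its adjusted p in edgeR was 0.409. DESeq2's Wald test called it, with the same estimate of -0.86 and an adjusted p of 0.017. The adjusted p ranged from 0.017 to 0.76 over the alternatives, and the estimate from -0.91 to -0.77.

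Enc1 was 1.33-fold lower in Tem1lacZ/lacZ sham scars (log2 fold change -0.41, 95% interval -0.67 to -0.15, adjusted p = 0.409), also without overlap. For the other 3 the sham scars of the genotypes overlapped, with estimates of -0.16 for Stac2 (-0.55 to 0.23, adjusted p = 0.733), 0.01 for Tmem252 (-0.58 to 0.60, adjusted p = 0.988) and 0.05 for Vwa1 (-0.27 to 0.37, adjusted p = 0.920). The estimate for Stac2 was -0.06 without replicate 3 of the Tem1WT/WT sham group. The signs for Tmem252 and Vwa1 turned under some alternatives. Groups that did not overlap numbered 2 of 5, against 26.8% of all genes, and called genes 0 of 5 in edgeR, against 0.0053% of all genes called higher and 0.0053% lower, with 2198 genes, Enc1 and Rest among them, at an unadjusted p under 0.05. The comparison shares its Tem1WT/WT sham libraries with the traction comparison that chose the genes.

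**Figure D2:**
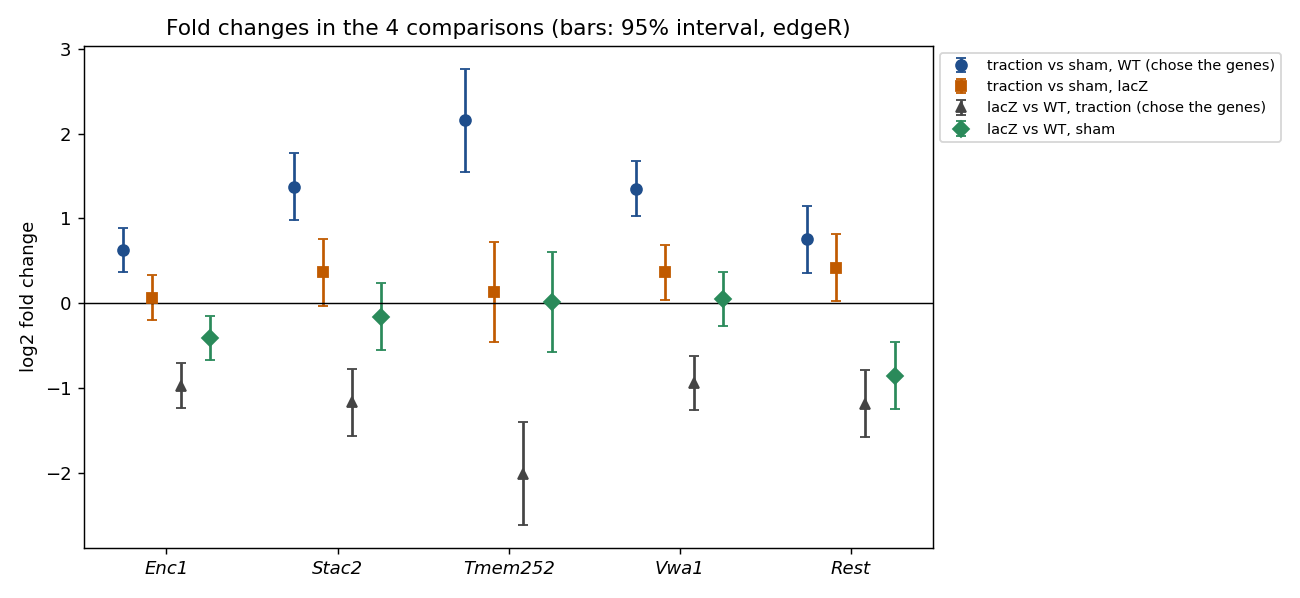
Log2 fold change of each gene (y axis) in the 4 comparisons, with 95% intervals from the edgeR fit of 12 libraries; circles and triangles are the comparisons that chose the genes and are shown as a description. Squares (traction in Tem1lacZ/lacZ) run from 0.07 for Enc1 to 0.42 for Rest, with intervals above 0 for Vwa1 and Rest, and diamonds (genotype without traction) have intervals below 0 for Enc1 at -0.41 and Rest at -0.86; the intervals are not adjusted for the number of genes, and none of these values passed after adjustment in edgeR.

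The effect of traction in Tem1lacZ/lacZ minus that in Tem1WT/WT scars contains the values that chose the genes and is given as an estimate. It was -2.03 for Tmem252 (SE 0.38), -1.01 for Stac2 (SE 0.25), -0.99 for Vwa1 (SE 0.21), -0.56 for Enc1 (SE 0.17) and -0.33 for Rest (SE 0.25). The value for Rest was -0.10 without replicate 1 of the Tem1lacZ/lacZ traction group, -0.16 without replicate 1 of the Tem1WT/WT traction group and -0.15 in limma-voom. For Rest the log2 difference between Tem1lacZ/lacZ and Tem1WT/WT scars was -1.19 with traction and -0.86 without it. For Enc1 it was -0.97 with traction and -0.41 without. The sham levels of Tmem252, Stac2 and Vwa1 overlapped between the genotypes.

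**Figure D3:**
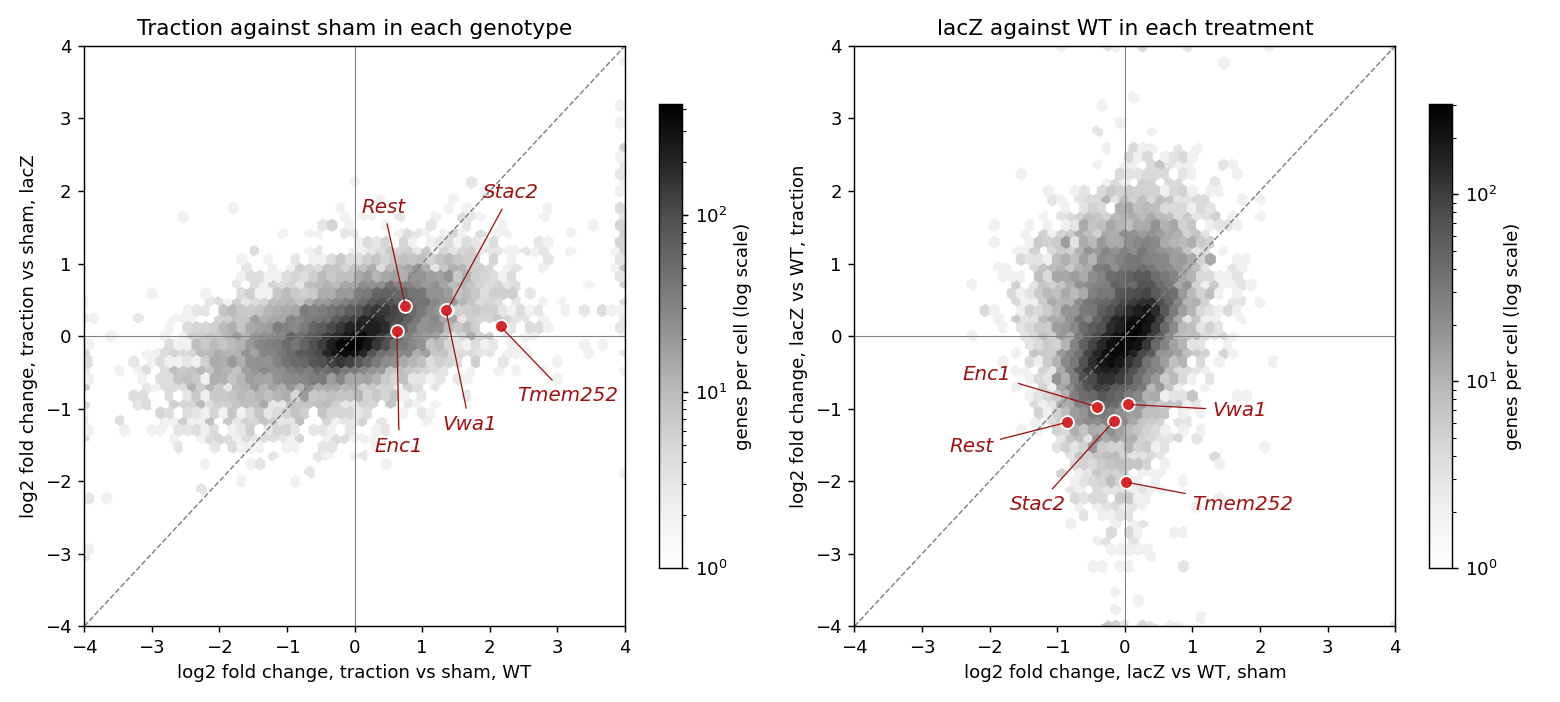
All 18853 tested genes as grey cells (shade: number of genes on a log scale) with the 5 genes in red; left, the log2 fold change with traction in Tem1WT/WT (x axis) and Tem1lacZ/lacZ scars (y axis), and right, that between the genotypes without (x axis) and with traction (y axis), with values beyond ±4 drawn at the edge. The 5 genes lie right of and below the dashed line of equal change on the left, where Tmem252 is at 2.16 and 0.13, and on the right Rest is the nearest to that line, at -0.86 and -1.19.

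The spread between scars differed among the genes. The SD of log2 CPM within groups, pooled over the 4 groups, was 0.10 for Enc1, 0.15 for Vwa1, 0.18 for Stac2, 0.22 for Rest and 0.33 for Tmem252. Replicate 1 was the highest of the Tem1WT/WT traction scars for Enc1, Stac2, Tmem252 and Rest, and replicate 3 for Vwa1. Without that replicate 1 the log2 fold changes with traction in Tem1WT/WT scars were 0.58 for Enc1, 1.21 for Stac2, 1.89 for Tmem252, 1.30 for Vwa1 and 0.61 for Rest.

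Marker lists of several cell types moved with the same groups. The summed level of 7 endothelial markers was 315 to 473 CPM in Tem1WT/WT sham, 813 to 935 in Tem1WT/WT traction, 265 to 447 in Tem1lacZ/lacZ sham and 396 to 642 CPM in Tem1lacZ/lacZ traction scars, and 5 of the 7 were called higher with traction in Tem1WT/WT scars. Of 7 neutrophil markers 6 had enough reads to be tested. In the same order the summed level of those 6 was 62.0 to 97.6, 287 to 6792, 172 to 191 and 245 to 530 CPM. Of these 6, 4 were called higher with traction in Tem1WT/WT scars, and the highest sum was in replicate 1 of that traction group. That of 7 fibroblast markers was 13099 to 17644, 19962 to 54764, 8441 to 13746 and 10497 to 23964 CPM, with 1 of 7 called higher with traction in Tem1WT/WT scars. The sum of 6 hair follicle markers went the other way in Tem1WT/WT scars, from 7358 to 14428 CPM with sham treatment to 2303 to 3947 CPM with traction, with 2 of 6 called lower, and was 1943 to 14919 and 4402 to 8914 CPM in Tem1lacZ/lacZ scars. Of 5 melanocyte markers 1 was called lower with traction in Tem1WT/WT scars, and their median log2 fold change was -1.73. Of the markers of 7 further cell types 0 were called by edgeR in that comparison, where the median log2 fold changes were -2.98 for skeletal muscle, -1.47 for adipocytes, -0.85 for nerve and Schwann cells, 0.46 for pericytes and smooth muscle, 0.30 for macrophages, 0.19 for keratinocytes and 0.09 for T cells. Between the genotypes under traction no marker of any list was called by edgeR. No marker of these lists that the files hold was at 0 in all libraries. The part of these cells in the levels of the 5 genes was not tested.

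Across the 12 libraries the levels of the 5 genes went together, which the choice of the genes in part fixes. Pearson's r of log2 CPM lay between 0.784 for Vwa1 with Rest and 0.967 for Stac2 with Tmem252. After the group means were removed it lay between 0.175 for Enc1 with Tmem252 and 0.789 for Tmem252 with Rest. These are descriptions over 12 libraries that share depth and tissue composition.

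Among 13641 genes whose log2 CPM averaged 1 or more, the genes most like each of the 5 over the 12 libraries were found. For Tmem252 they were Actn1, which encodes the actin cross-linker alpha-actinin (r = 0.983), Slc35e1 (0.978) and Ifnar1, a type I interferon receptor chain (0.971). For Stac2 they were the small GTPase gene Ralb (0.981), Ifnar1 (0.979) and Nos2, the inducible nitric oxide synthase (0.977). Ifnar1 is named for both of these genes. Its own log2 fold changes were 0.84 with traction in Tem1WT/WT scars and 0.20 in Tem1lacZ/lacZ scars, which its choice by likeness in part fixes.

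For Vwa1 the genes most like it were Kctd20 (r = 0.967), Dda1 (0.967) and Surf4, a cargo receptor of the endoplasmic reticulum (0.966). For Enc1 they were the alanyl-tRNA synthetase gene Aars (0.961), the adaptor gene Crkl (0.956) and Ddit4, an inhibitor of mTORC1 (0.949). For Rest they were the syntrophin gene Sntb2 (0.980), the Argonaute gene Ago2 (0.975) and Crkl (0.973). After the group means were removed, r was 0.940, 0.906 and 0.788 for the genes named for Tmem252, 0.743, 0.767 and 0.721 for those named for Stac2, 0.849, 0.907 and 0.785 for Vwa1, 0.723, 0.154 and 0.615 for Enc1, and 0.908, 0.905 and 0.718 for Rest, in the order given. The r of Enc1 with Crkl thus lay almost wholly between the groups. Like Rest, Sntb2 and Ago2 were lower in Tem1lacZ/lacZ scars without traction as estimates, by log2 fold changes of -0.71 and -0.69. Their choice by likeness to Rest over the same libraries in part fixes this.

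Of the closest relatives of the 5 genes, Stac was at 2.02 ± 0.231 and 1.99 ± 0.315 CPM in Tem1WT/WT and 1.22 ± 0.555 and 1.52 ± 0.762 CPM in Tem1lacZ/lacZ scars, and did not pass in any of the 4 comparisons. Stac3, the family member of skeletal muscle, was at 8.75 ± 8.87 and 1.47 ± 0.832 CPM in Tem1WT/WT scars, a log2 fold change with traction of -2.57 (edgeR adjusted p = 0.0518). That is opposite in sign to Stac2, beside summed skeletal muscle markers of 1185 to 12807 CPM in the Tem1WT/WT sham and 303 to 1914 CPM in the Tem1WT/WT traction scars. The part of muscle tissue in this value was not tested.

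Klhl25, the closest BTB-Kelch relative of Enc1, was at 20.4 ± 2.72 and 21.98 ± 3.24 CPM in Tem1WT/WT and 19.1 ± 4.05 and 17.9 ± 0.914 CPM in Tem1lacZ/lacZ scars and did not pass in any comparison. Keap1, the BTB-Kelch sensor of oxidative stress, had estimates of 0.37 with traction in Tem1WT/WT and 0.35 in Tem1lacZ/lacZ scars, with adjusted p-values of 0.105 and 0.598. The matrilin genes Matn2, Matn3 and Matn4, whose proteins also carry von Willebrand A domains, did not pass in any comparison, and Matn1 had 0 to 2 counts. Of the co-repressor genes, Rcor2 rose with traction in Tem1WT/WT scars from 3.18 ± 0.734 to 6.44 ± 1.93 CPM (log2 fold change 1.02, SE 0.27, adjusted p = 0.0446), while Rcor1 and Rcor3 had estimates of 0.19 and 0.04.

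Further genes of the same pathways were counted in 7 lists. In the traction comparison of Tem1WT/WT scars the median log2 fold change over all genes was -0.01, and calls were made at an adjusted p under 0.05 in edgeR. With upper quartile scaling that median moved to -0.12 and the share of calls that were higher from 61.3% to 43.9%. The number of genes called there ranged from 0 to 2861 when single libraries were left out, with 0 called without replicate 1 or without replicate 2 of the Tem1WT/WT sham group, where 4229 and 4847 genes had an unadjusted p under 0.05. It was 169 without replicate 3 of the Tem1lacZ/lacZ sham group and 360 without replicate 1 of the Tem1WT/WT traction group, so the counts below rest on all 12 libraries.

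Beside the counts that follow, 5.61% of all tested genes were called higher and 3.54% lower in this comparison. Of 26 basement membrane and collagen VI genes, 5 rose, 1 fell and 20 did not pass with traction in Tem1WT/WT scars, with a list median of 0.89. On the log2 scale Nid2, which encodes a nidogen, rose by 2.18 (adjusted p = 0.0311) and the collagen IV chain gene Col4a6 fell by 1.97 (0.0281). Of 19 tested genes for other matrix and receptor proteins with a von Willebrand A domain, 4 rose and 0 fell, with a median of 0.71. They included Col12a1 at a log2 fold change of 2.91 (adjusted p = 0.0242), Col7a1, the anchoring fibril collagen, at 1.83 (0.0329) and the collagen receptor gene Antxr1 at 1.17 (0.0311). Under traction the medians of these lists between Tem1lacZ/lacZ and Tem1WT/WT were -0.91 and -0.60, beside 0.01 over all genes, and 0 genes of either list were called by edgeR, with 12 and 7 lower and 1 and 0 higher at an unadjusted p under 0.05, where 15.1% of all genes were lower and 11.1% higher. The endothelial and fibroblast markers had medians of 1.12 and 0.51 with traction in Tem1WT/WT scars, with 5 and 1 of 7 called higher, and of -0.59 and -0.97 between the genotypes under traction, with 0 of 7 called in either list, and their part was not tested.

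Of 26 genes of L-type calcium channels and calcium release, the machinery that STAC proteins adjoin, 3 rose and 1 fell with traction in Tem1WT/WT scars, with a median of -0.80. On the log2 scale the channel genes Cacna1c and Cacnb3 rose by 1.60 (adjusted p = 0.0349) and 1.09 (0.0329), and Trdn, which encodes triadin of striated muscle, fell by 5.27 (0.0278). The muscle marker sums given for Stac3 moved with this list too. Of 29 genes of BTB-Kelch proteins and the CUL3 ubiquitin ligase, 1 rose and 0 fell (Klhl5 at a log2 fold change of 0.64, adjusted p = 0.0471), a share of 3.45% that is below the background, with a median of 0.10. Of 18 genes for NRF2, a factor that ENC1 and KEAP1 are known to restrain, and its targets, 2 rose, 1 fell and 15 did not pass, with a median of 0.42. They were the heme oxygenase gene Hmox1 at a log2 fold change of 2.20 (adjusted p = 0.0184), the glutathione reductase gene Gsr at 1.93 (0.0334) and Ephx1, an epoxide hydrolase gene, at -1.19 (0.0480).

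Around Rest, 2 of 24 genes for its co-repressors and turnover rose with traction in Tem1WT/WT scars, Rcor2 and Hmg20b (log2 fold change 0.51, adjusted p = 0.0415), 0 fell, and the median was 0.24. Of 28 neuronal genes known as REST targets, 9 had too few reads to be tested. Of the 19 tested, 1 rose (Celsr3, a cadherin gene, log2 fold change 2.22, adjusted p = 0.0398), a share of 5.26% that is near the background, 0 fell, and the median was 0.04. In Tem1lacZ/lacZ sham scars, where Rest was lowest, 0 of the 19 were called by edgeR and 1 was lower and 0 higher at an unadjusted p under 0.05, beside 6.62% and 5.03% of all genes, with a median of -0.34 against Tem1WT/WT. The 6 nerve and Schwann cell markers had a median of -0.51 in the same comparison, with 0 called by edgeR, and their part was not tested. Between the genotypes under traction the medians of the other 5 lists were 0.35 for calcium channels and release (2 genes higher and 5 lower at an unadjusted p under 0.05), -0.20 for BTB-Kelch and CUL3 genes (2 and 5), -0.24 for NRF2 and its targets (0 and 6), -0.29 for the co-repressors (0 and 6) and -0.01 for the neuronal targets (1 and 1). These 5 lists held 26, 29, 18, 24 and 19 tested genes in that order. At that p 11.1% of all genes were higher and 15.1% lower. No gene of the 7 lists was called by edgeR in the traction comparison of Tem1lacZ/lacZ scars or either genotype comparison with all 12 libraries. Under traction, DESeq2 called 7 basement membrane and collagen VI genes, 6 of NRF2 and its targets, 5 of the calcium channel list, 4 with a von Willebrand A domain, 1 BTB-Kelch or CUL3 gene, 1 of the co-repressor list and 0 neuronal targets between the genotypes, where it called 12.4% of all genes. Without replicate 2 of the Tem1WT/WT traction group, edgeR called 3, 2, 1, 2, 0, 0 and 0 genes of these lists in the same order, and 7.32% of all genes.

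**Figure D4:**
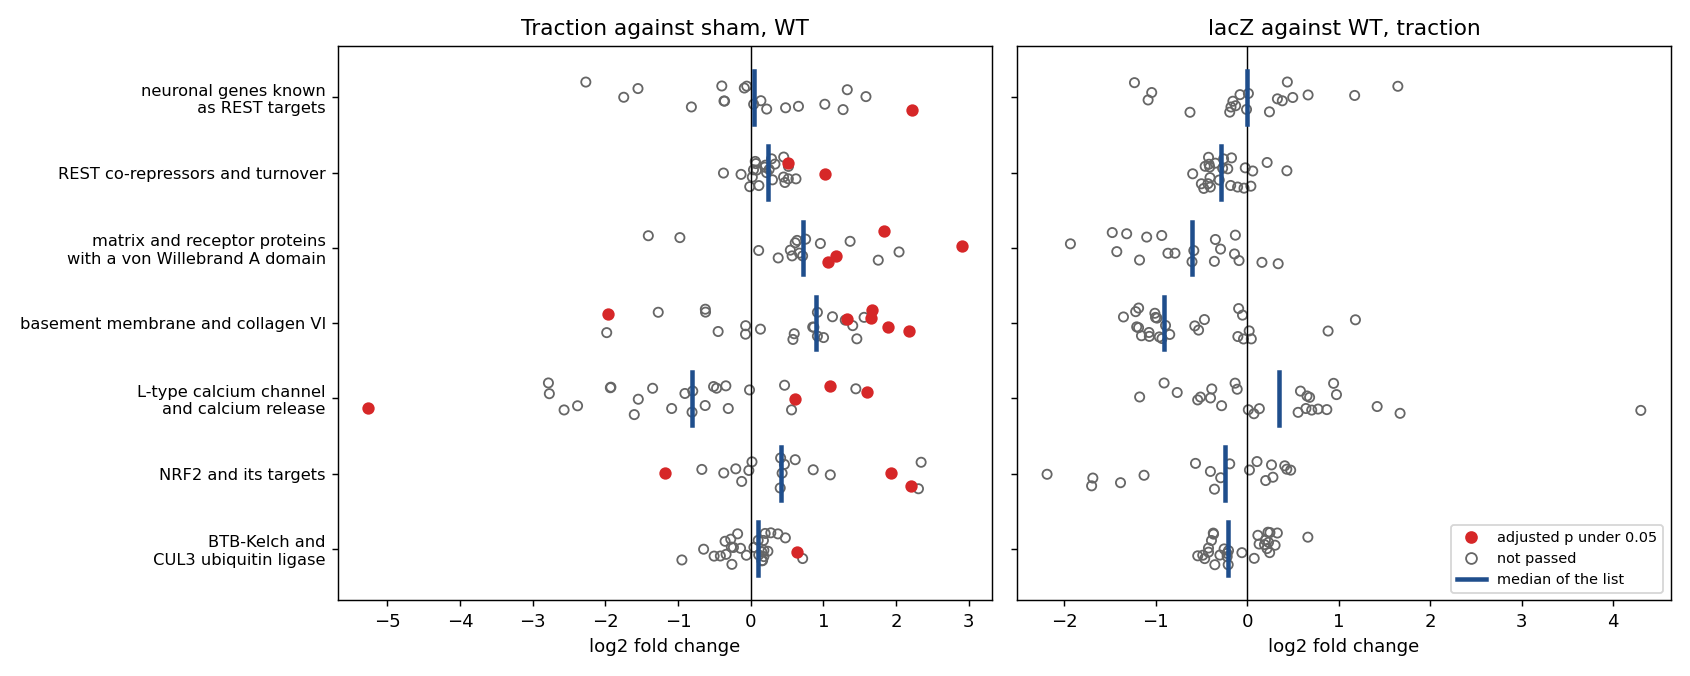
Log2 fold change (x axis) of every tested gene of the 7 lists (rows), with traction in Tem1WT/WT scars on the left and between the genotypes under traction on the right, on separate scales; filled red points passed an adjusted p of 0.05 and blue bars are list medians. On the left 18 points passed up and 3 down across the lists, and on the right none did.

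The protein-coding genes beside the 5 on their chromosomes that are named here did not pass in any of the 4 comparisons, apart from Foxd4, which was not tested. From the RefSeq table they were Arhgef28 beside Enc1, Rpl19 and Fbxl20 beside Stac2, Pip5k1b and Foxd4 beside Tmem252, Atad3a and Tmem88b beside Vwa1, and Spink2 and Noa1 beside Rest. Rpl19 lies 6.13 kb from Stac2 and had a log2 fold change with traction in Tem1WT/WT scars of -0.19. Tmem88b and Atad3a lie 6.90 and 7.37 kb from Vwa1 and had -0.41 and -0.05, and Noa1 lies 7.74 kb from Rest and had 0.18. Foxd4 had at most 75 counts in a library.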

How the data were processed

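Total RNA of 3 scars per group was made into stranded mRNA libraries and sequenced on an Illumina NovaSeq. The authors trimmed reads with fastp 0.20.0, aligned them with HISAT2 2.1.0 to GRCm38 and counted them with featureCounts 2.0.0, and the deposited values are raw read counts per gene and library, with no normalization. The gene annotation and the strand setting are not given in the sources used here.

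From these counts, genes with few reads were removed by group in edgeR 4.0.16 (R 4.3.3), libraries were scaled by TMM, and a robust quasi-likelihood model of the 4 groups was fitted to all 12 libraries (8 residual degrees of freedom), with p-values adjusted by Benjamini-Hochberg over 18853 genes. The fit was tested on simulated data with known changes. Log2 CPM used a prior count of 2. Libraries of the same group were compared pairwise, and none were duplicates. Each mouse is a replicate, so p-values measure the spread between mice.

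The 5 genes, the lists and the tests were chosen with earlier results of these data known. Beside the 5 genes, the text names the 3 genes most correlated with each over the 12 libraries, close family members, up to 3 called genes per list with the largest change, chromosomal neighbours and Cd248. Some genes that this rule names are not reported here. Coordinates, promoters and neighbours are from RefSeq (GRCm38) and exon lengths from GENCODE. Alternatives were other filters, scalings, thresholds and tests (DESeq2 1.42.0, limma 3.58.1), a replicate block, fits of the 6 libraries compared, and leaving out each library.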

Additional observations from a re-analysis of the deposited data

How the results depend on the processing

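For the 5 genes, 502 of 520 estimates under alternatives kept their direction, their side of the threshold and, where no test was made, moved by less than the spread between replicates. With upper quartile scaling Enc1 was at 0.51 with traction in Tem1WT/WT and -0.84 between genotypes under traction, which is 0.63 and -0.98 relative to the median of all genes. For Tmem252 without traction the genotype estimate was -0.0169 with all genes of at least 1 count and -0.0497 in limma-voom, and for Vwa1 -0.00358 in limma-voom, where Vwa1's difference of traction effects was -0.80. Rest without traction was called by DESeq2 (-0.86), the 1 gene of the 5 called there. Leaving out single libraries gave -0.63 to -0.45 (Enc1), -1.12 to -0.81 (Stac2) and -0.47 to -0.10 (Rest) for the difference of traction effects, -0.0623 to 0.33 for Tmem252 with traction in Tem1lacZ/lacZ, and -0.16 to 0.15 (Tmem252) and -0.0401 to 0.0833 (Vwa1) between genotypes without traction. Calls in all genes moved more. With traction in Tem1WT/WT they were 1725, but 1011 with all genes of at least 1 count, 4047 in DESeq2, 748 in limma-voom, 0 in the 6 libraries compared (4876 at an unadjusted p under 0.05), 0 at an adjusted p under 0.01 and 0 to 2861 without single libraries. With traction in Tem1lacZ/lacZ they were 0, but 28 in DESeq2, 435 in limma-voom and 0 to 73 without single libraries. Between genotypes under traction they were 20, but 2334 in DESeq2, 0 in the 6 libraries (2969 at an unadjusted p under 0.05), 6 at an adjusted p under 0.01 and 3 to 1421 without single libraries. Between genotypes without traction they were 2, but 43 in DESeq2, 0 with at least 10 counts in every library (2103 at an unadjusted p under 0.05), 1 in limma-voom, in the 6 libraries and at an adjusted p under 0.01, and 1 to 2 without single libraries. The cause was not tested. Replicate numbers were not taken to pair the mice. Deviations of same-numbered scars correlated at -0.32 to 0.25, with 8 of 18 pairs over 0.1. With a replicate block 1467, 0, 15 and 2 genes were called in these comparisons, and Rest without traction was at -0.85 (adjusted p = 0.435).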
